A study of Cavia porcellus with 30 samples.

Results

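The transcripts described here rose in the guinea pig kidney 9 h after both doses of mercuric chloride, were still raised 33 h after the high dose, and had a group mean near that of vehicle 33 h after the low dose. A transcript belonged to the set when its mean TPM was at least 0.5 over the 10 vehicle animals and its log2 ratio to vehicle of the same time was at least 0.58 in Low 9 h, High 9 h and High 33 h, but within 0.3 of 0 in Low 33 h. The log2 ratio compared the mean TPM of the 5 treated animals plus 1 with the mean TPM of the 5 vehicle animals plus 1, so 0.58 is a 1.49-fold rise and 0.3 is 1.23-fold on that scale. TPM is a level already divided by transcript length and scaled to the same total in every library. The rule found 133 of the 25824 transcripts in each file. The members were chosen by these 4 ratios and the vehicle level, so calls and counts on these contrasts describe the members and support nothing about them.

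The animals were male Hartley guinea pigs, 5 in each of 6 groups. Vehicle animals received 1 ml/kg saline, Low animals received 1.00 mg/kg mercuric chloride and High animals 1.50 mg/kg, each as one intraperitoneal injection, and kidneys were collected after 9 or 33 h. All animals, vehicle included, were bought at 4 weeks of age, acclimated for 7 days, fitted with catheters and fasted for 8 h before collection. Each library came from a different animal and from powdered whole kidney, so a lower level can be fewer cells of a type or less RNA in each cell, and these cannot be told apart.

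Mercuric ions bind strongly to thiol groups and accumulate in the kidney, above all in cells of the proximal tubule, which take them up as thiol conjugates. Tubular cells exposed to such metals are known to raise transcripts for metal binding, glutathione synthesis and protein repair, and tubules that survive can restore their epithelium over the following days. Dose influences how many tubular cells survive, which is why a low and a high dose followed over time are a common design for kidney injury.

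The files list transcripts by Ensembl identifiers without gene names, and the gene table used here matched 0 of the 133 members. In the part of the study's gene pairing that was read here, 40 members were paired with a guinea pig gene and a rat gene number, and no gene of that part was paired with more than 1 member. Members are therefore named by transcript, with the gene identifiers where they are paired. The rat gene numbers were not converted to gene names, and neither the functions of the members nor the kidney cell types were checked. Kallisto divides reads among similar transcripts, so the level of a transcript with a close paralog or isoform is uncertain. The total estimated count per animal, rounded, was between 23134687 and 36072295.

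Of 17560 transcripts with the vehicle minimum, 977 reached 0.58 in Low 9 h, 1134 in High 9 h and 1575 in High 33 h, and 362 reached it in all 3 groups. The 362 divided by their level 33 h after the low dose into the 133 members, 225 transcripts that were still at 0.3 or more, and 4 at -0.3 or less. The limit falls inside a continuous range of values. The members nearest to it were ENSCPOT00000038292.1 at 0.298 and ENSCPOT00000032484.1 at 0.297, and the nearest transcripts outside it were ENSCPOT00000033134.1 at 0.302 and ENSCPOT00000012087.3 at 0.304. The other limits also fell between close values. For Low 9 h, ENSCPOT00000006090.3 at 0.583 was inside and ENSCPOT00000014928.3 at 0.579 outside, and for High 33 h, ENSCPOT00000035714.1 at 0.584 was inside and ENSCPOT00000002648.3 at 0.579 outside. For High 9 h, ENSCPOT00000021185.2 at 0.583 was inside and ENSCPOT00000004216.3 at 0.554 outside, and the vehicle minimum separated ENSCPOT00000026411.2 at 0.551 TPM from ENSCPOT00000035548.1 at 0.487 TPM.

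The rises were mostly moderate. The median log2 ratio of the members was 0.75 in Low 9 h, 0.93 in High 9 h and 0.77 in High 33 h, beside 0.08, 0.06 and 0.03 over all 17560 transcripts. A ratio of at least 1, a doubling on this scale, was held by 26 members in Low 9 h, 55 in High 9 h and 26 in High 33 h, by 9 in all 3, and 5 members reached 2 in any group. One of these, ENSCPOT00000013429.3, rests on single animals, since its Low 9 h levels were 0.375, 0.866, 0.689, 1.06 and 77.3 TPM in animals 33 to 37 and its High 9 h levels 18.9, 1.22, 1.60, 3.32 and 0.249 TPM in animals 38 to 42. Without animal 37 the Low 9 h animals were near the Vehicle 9 h mean of 0.667 TPM. The member with the largest ratios, ENSCPOT00000026740.2, stood at 3.38 in Low 9 h and 3.55 in High 9 h. In High 33 h the ratios of the 133 members lay between 0.58 and 1.68.

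The low-dose ratio at 33 h was within the limit but it was not centred on 0. Its median was 0.16 and its range -0.24 to 0.30. It was above 0 in 121 members (91.0%) and at 0 or below in 12, whereas 42.1% of the 14853 transcripts within the same limit were above 0. The log2 ratio of 58 members was above 0.2.

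Values in single animals showed that this small mean joined animals with different levels. The median log2 ratio of the members, taken in each animal against the vehicle mean of its time, was 0.40 in animal 48, -0.25 in animal 49, -0.05 in animal 50, 0.22 in animal 51 and 0.38 in animal 52. Animals 48, 51 and 52 were thus above all 5 vehicle animals of 33 h, whose medians were between -0.11 and 0.15, while animal 49 was below all of them. Of the 133 members, 99 were higher in animal 48 than in all 5 vehicle animals, beside 24.3% of the 17560 transcripts, 96 in animal 52, beside 22.3%, and 65 in animal 51, beside 23.9%. The count was 13 in animal 50, beside 14.5%, and 2 in animal 49, beside 8.84%. Animal 49 held the lowest Low 33 h value of 104 members. The total counts of these 5 animals were between 25222556 and 28861359, with 28450360 in animal 49 and 28626465 in animal 48.

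**Figure D1:**
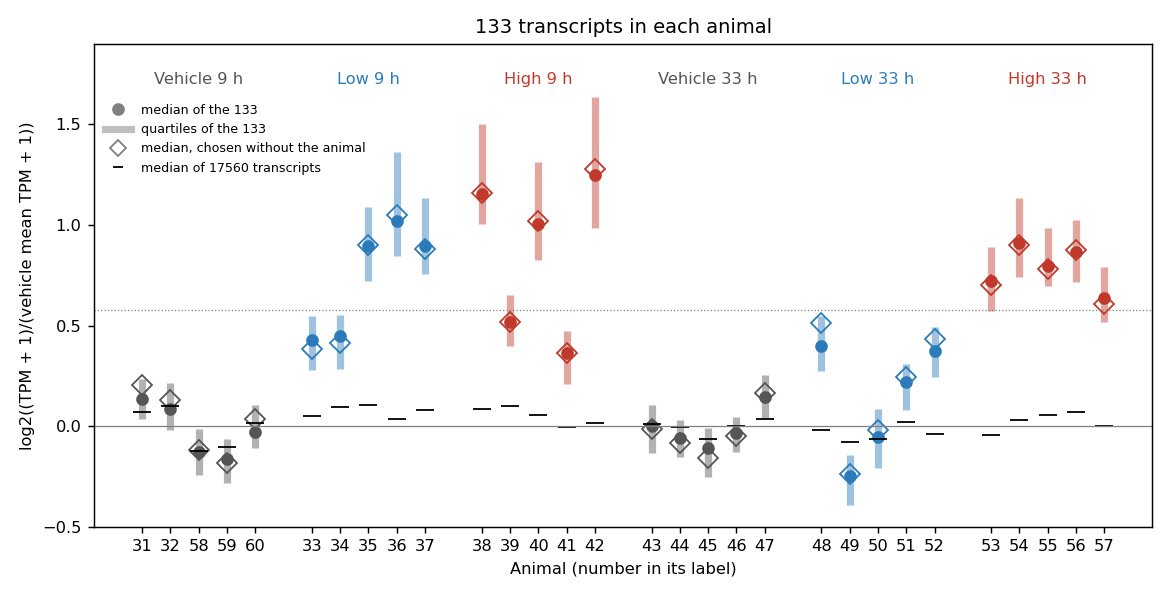
Median (filled circle) and quartiles (thick bar) of the log2 ratio of the 133 transcripts in each of the 30 animals, against the vehicle mean TPM of the same time, in 6 groups of 5. Open diamonds are the median when the members were chosen without that animal, dashes are the median of all 17560 transcripts, and the dotted line is 0.58. The Low 33 h animals spread from -0.25 to 0.40, and the High 33 h animals lie between 0.64 and 0.91.

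The spread was of like size when an animal had no part in the choice of members. With the members chosen again without the animal in question, the medians were 0.51 in animal 48, -0.24 in animal 49, -0.02 in animal 50, 0.25 in animal 51 and 0.43 in animal 52. These values differ from those above by less than the SD of 0.28 between the 5 animals. Membership itself depended on animal 49, since the rule without it found 81 transcripts, 79 of them among the 133, and on animal 48, since the rule without that animal found 187, which include 130 of the 133.

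Animals also differed 9 h after dosing, when both doses had raised the set. The Low 9 h medians were 0.43 and 0.45 in animals 33 and 34, but 0.90, 1.02 and 0.89 in animals 35, 36 and 37. In High 9 h they were 0.52 in animal 39 and 0.36 in animal 41, but 1.15, 1.00 and 1.25 in animals 38, 40 and 42. Every treated animal at 9 h was above the vehicle animals of that time, whose medians lay between -0.16 and 0.13, but the weakest High animal was below the weakest Low animal. Animals 33, 34, 39 and 41 had total counts of 26158731, 23241228, 25560637 and 25423957, and animal 42, with the largest median at 9 h, had 23134687. Over all 17560 transcripts, the median ratio of an animal lay between -0.12 and 0.10 in the 30 animals.

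High 33 h was the most even of the treated groups in SD. Its medians were 0.72, 0.91, 0.80, 0.86 and 0.64 in animals 53 to 57, with an SD of 0.11 (n = 5), compared with 0.28 in Low 9 h, 0.39 in High 9 h and 0.28 in Low 33 h. Summed over the members, the level was 3640 ± 387 TPM (SD, n = 5) in Vehicle 9 h, 7129 ± 1578 TPM in Low 9 h and 7979 ± 1929 TPM in High 9 h. At 33 h it was 4524 ± 318 TPM with vehicle, 5204 ± 1031 TPM with the low dose and 8164 ± 719 TPM with the high dose. The sum in the high-dose animals was of like size at both times, while its SD at 33 h was below that at 9 h. ENSCPOT00000026740.2 alone gave 1191 TPM of the mean sum in High 9 h and 140.8 TPM in High 33 h. The mean sum of the other members was thus higher in High 33 h than in High 9 h.

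**Figure D2:**
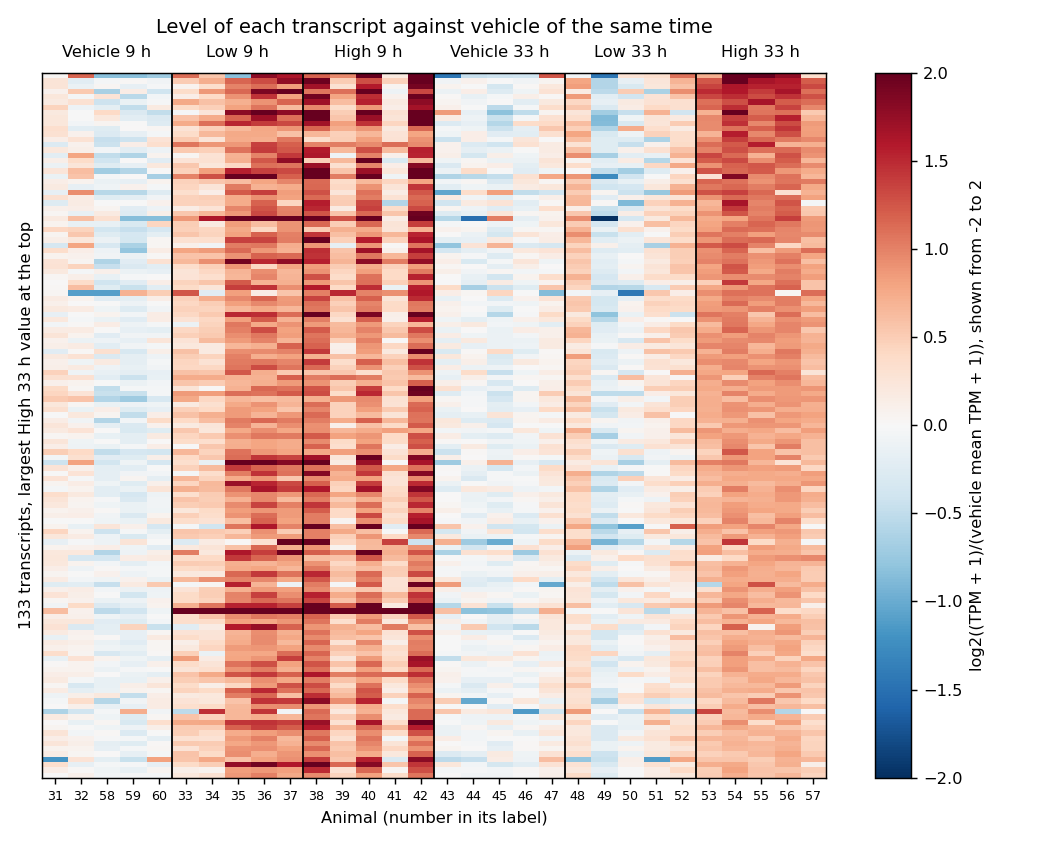
Log2 ratio of each of the 133 transcripts (rows, ordered by the High 33 h ratio) in each of the 30 animals (columns, grouped), against the vehicle mean TPM of the same time; red is above and blue below vehicle, with the colour scale limited to -2 and 2. Animals 33, 34, 39 and 41 are paler than the rest of their groups over most rows, animal 49 is blue over most rows, and the 5 High 33 h animals are red over most rows.

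The members moved together from animal to animal. The log2 level of each member minus its group mean was correlated with the mean of the other members, and Pearson's r over the 30 animals had a median of 0.84 and was above 0 in 132 of 133 members. Over the 17427 other transcripts, the median correlation with the same mean was 0.11. Among the 10 treated animals of 9 h the medians were 0.92 for the members and -0.01 for the others, and among the 10 vehicle animals they were 0.62 and 0.47. These points share libraries and their scaling, so the correlations are a description of these animals. The correlation was not computed apart for the 225 transcripts with the same 3 rises. Their medians in single animals are given below, so the shared movement is not shown to be particular to the members.

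Counted transcript by transcript, all 5 treated animals were above all 5 vehicle animals for 87 members in Low 9 h, where 9.08% of the 17560 transcripts were so placed, and for 76 members in High 9 h, beside 8.83%. In High 33 h this held for 112 members, beside 19.2%. It held for 0 members in Low 33 h, beside 0.866%. For 15 members (11.3%) no Low 33 h animal was above the vehicle range, beside 51.4% of all transcripts. It was 1 animal for 22 members (16.5%, beside 22.1%), 2 animals for 42 (31.6%, beside 13.2%), 3 for 47 (35.3%, beside 8.66%) and 4 for 7 (5.26%, beside 3.77%). Between the doses at 33 h, 83 members were higher in every High animal than in every Low animal, beside 11.3%. The rule used these contrasts, so the shares support nothing about the members.

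The test across the whole table gave counts of the same kind. edgeR's quasi-likelihood test on the rounded estimated counts, with a Benjamini-Hochberg adjusted p of at most 0.1, could be made for 132 members, and ENSCPOT00000006090.3 did not pass the filter on low counts. Higher levels were called for 121 members in Low 9 h, where 11.7% of the 19729 transcripts tested were called higher, for 127 in High 9 h, beside 16.9%, and for 128 in High 33 h, beside 25.1%. In Low 33 h edgeR called 0 members, beside 0.897% of all transcripts in either direction, with 13 members (9.85%) at an unadjusted p under 0.05, beside 15.8% of all, and 2 called by DESeq2, beside 7.46%. Without animal 49, edgeR called 23 members (17.4%) in Low 33 h, beside 10.5% of all transcripts. Between High 33 h and Low 33 h, 110 members were called higher with the high dose, beside 13.7%, a difference that the limits of the rule impose.

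The 225 transcripts with the same 3 rises and a ratio of 0.3 or more in Low 33 h had larger rises than the members also where both sets had the same limit. Their median log2 ratios were 0.89 in Low 9 h, 1.07 in High 9 h and 1.36 in High 33 h, compared with 0.75, 0.93 and 0.77 in the members. In Low 33 h the order of the animals was the same in both sets, with medians of the 225 of 0.94 in animal 48, 0.89 in animal 52, 0.48 in animal 51, 0.24 in animal 50 and -0.18 in animal 49. Animal 49 was thus below the vehicle mean in both sets, and no test was made, since the sets were divided by the Low 33 h values. In Low 9 h the medians of the 225 were 0.55 and 0.56 in animals 33 and 34, but 1.06, 1.19 and 1.05 in animals 35 to 37. In High 9 h they were 0.66 and 0.47 in animals 39 and 41, but 1.32, 1.22 and 1.37 in animals 38, 40 and 42. The weaker animals at 9 h were thus the same in both sets.

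The members were not a set of rare or of abundant transcripts. Their mean TPM over the 10 vehicle animals ran from 0.551 to 963.6 with a median of 8.50, beside a median of 9.05 over all 17560. Their median length of 2068 bases was below the median of 2409 bases over all.

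Among the 6 members with the highest vehicle level, ENSCPOT00000013600.3 supplied the largest share of the summed TPM. Its levels were 940.4, 885.9, 875.7, 822.4 and 872.5 TPM in Vehicle 9 h (animals 31, 32, 58, 59 and 60), 1178, 1233, 1560, 1718 and 1610 TPM in Low 9 h (33 to 37) and 1884, 1222, 1732, 1151 and 1825 TPM in High 9 h (38 to 42). At 33 h they were 1128, 1011, 1010, 992 and 1099 TPM in Vehicle (43 to 47), 1543, 823.5, 1104, 1450 and 1395 TPM in Low (48 to 52) and 1877, 2301, 1862, 2124 and 1644 TPM in High (53 to 57). All treated animals of 9 h and all High 33 h animals were above the vehicle animals of their time. In Low 33 h, animal 50 was within and animal 49 below the vehicle range, while animals 48, 51 and 52 were above it and below the lowest High 33 h animal.

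The other 5 abundant members had narrower rises. ENSCPOT00000009900.3 (gene ENSCPOG00000020972, rat gene 29578) stood at 196.7 ± 29.3 TPM in Vehicle 9 h, 315.4 ± 37.9 TPM in Low 9 h, 336.4 ± 64.0 TPM in High 9 h, 261.9 ± 24.3 TPM in Vehicle 33 h, 272.1 ± 58.0 TPM in Low 33 h and 428.9 ± 40.9 TPM in High 33 h (SD, n = 5). ENSCPOT00000000349.3 (ENSCPOG00000000346) went from 151.7 ± 21.3 to 243.9 ± 26.6 TPM in Low 9 h and 265.1 ± 59.7 TPM in High 9 h, and from 195.5 ± 19.5 to 298.5 ± 23.3 TPM in High 33 h, with 215.6 ± 33.7 TPM in Low 33 h. In both, the Low 33 h mean was within 1 SD of its own animals from the Vehicle 33 h mean. ENSCPOT00000003931.3 (ENSCPOG00000003887, rat gene 301252) stood at 132.0 ± 8.35 TPM in Vehicle 33 h, 144.2 ± 14.8 TPM in Low 33 h and 200.8 ± 14.7 TPM in High 33 h, and ENSCPOT00000039744.1 at 156.6 ± 11.7, 182.0 ± 31.3 and 258.6 ± 26.0 TPM. The High 33 h animals did not overlap with vehicle in any of these 4.

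Animals 31 and 32 had the highest Vehicle 9 h levels in each of the abundant members, and ENSCPOT00000022220.2 (ENSCPOG00000026271, rat gene 290905) had the widest division. In ENSCPOT00000009900.3 they were at 231.5 and 221.1 TPM, beside 183.9, 159.7 and 187.2 TPM in animals 58, 59 and 60. In ENSCPOT00000022220.2 the levels were 204.9 and 213.0 TPM in animals 31 and 32 but 95.2, 87.3 and 114.3 TPM in animals 58, 59 and 60. Its Low 9 h animals stood at 241.2, 190.6, 227.4, 217.7 and 221.4 TPM. Animals 31 and 32 were thus near the treated animals, and the 9 h rise of this transcript rests on the other vehicle animals. ENSCPOT00000046819.1 (ENSCPOG00000033880, rat gene 79210) had the same division, with 33.8 and 34.4 TPM in animals 31 and 32 and 19.1, 17.9 and 19.7 TPM in animals 58, 59 and 60. The highest Vehicle 9 h value was in animal 31 for 57 members and in animal 32 for 44. Over all 17560 transcripts, the median ratios were 0.07 and 0.10 in animals 31 and 32. They were -0.12, -0.10 and 0.02 in animals 58, 59 and 60. Over all members, the rule found 99 transcripts with animals 31 and 32 as the only 9 h controls, 85 of them members, and 207 with animals 58, 59 and 60, 129 of them members.

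**Figure D3:**
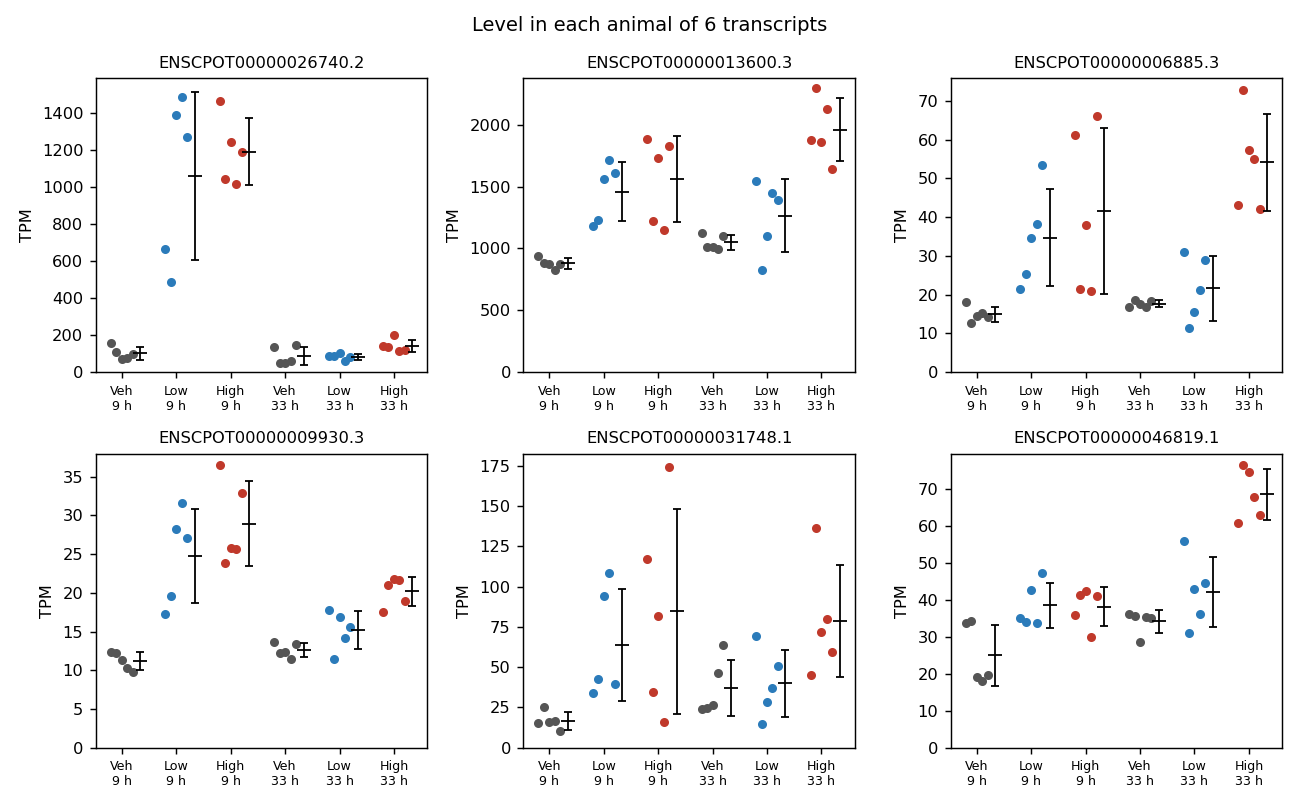
TPM of 6 of the 133 transcripts in each animal (points) with the mean and SD of each group of 5 (black), for vehicle (grey), low dose (blue) and high dose (red) at 9 and 33 h; each panel has its own axis from 0. ENSCPOT00000026740.2 is between 60.2 and 199.7 TPM in the treated animals of 33 h, far below the treated animals of 9 h, while ENSCPOT00000013600.3, ENSCPOT00000006885.3 and ENSCPOT00000046819.1 are at their highest group mean in High 33 h.

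ENSCPOT00000026740.2 (ENSCPOG00000023588, rat gene 24451) had the largest ratios of the set at 9 h, with both doses. It stood at 154.6, 107.6, 69.7, 77.4 and 94.98 TPM in the Vehicle 9 h animals. With the low dose it reached 666.7, 487.4, 1390, 1489 and 1271 TPM, and with the high dose 1464, 1041, 1245, 1016 and 1189 TPM. Every treated animal was above every vehicle animal, and animals 39 and 41, which were low for most members, were within 1 SD (180.7 TPM) of the High 9 h mean of 1191 TPM. At 33 h the low-dose animals stood at 86.8, 86.9, 105.2, 60.2 and 80.4 TPM, inside the vehicle values of 133.7, 49.1, 50.2, 60.6 and 145.5 TPM. Animals 48 and 52 were not raised for this transcript. The High 33 h values of 141.6, 132.7, 199.7, 112.9 and 117.1 TPM overlapped with vehicle, so its membership through the High 33 h ratio of 0.67 rests on groups that overlap.

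The 6 members with the largest smallest ratio of the 3 rises showed how far single animals carried them. ENSCPOT00000006885.3 rose from 14.9 ± 1.99 TPM in Vehicle 9 h to 34.7 ± 12.6 TPM in Low 9 h and 41.5 ± 21.4 TPM in High 9 h, and stood at 17.6 ± 0.889 TPM in Vehicle 33 h, 21.6 ± 8.38 TPM in Low 33 h and 54.1 ± 12.5 TPM in High 33 h (SD, n = 5). Its Low 33 h animals were at 31.0, 11.5, 15.6, 21.1 and 28.8 TPM, beside 16.7, 18.7, 17.5, 16.8 and 18.3 TPM with vehicle. Animals 49 and 50 were below, and animals 48, 51 and 52 above, all vehicle animals, around a mean ratio of 0.28.

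ENSCPOT00000004099.3 had the largest smallest ratio, 1.46. Its High 33 h animals were at 36.0, 38.7, 33.6, 40.1 and 27.3 TPM and its Vehicle 33 h animals at 11.03, 13.3, 9.93, 11.3 and 15.0 TPM, with no overlap. In High 9 h, by contrast, the animals were at 18.1, 18.5, 75.5, 7.53 and 21.9 TPM beside 4.85 to 12.1 TPM with vehicle, so animal 40 set much of the mean of 28.3 TPM and animal 41 was within the vehicle range. ENSCPOT00000033772.1 stood at 11.1 ± 2.29 TPM in Vehicle 33 h, 11.3 ± 3.52 TPM in Low 33 h and 26.4 ± 6.32 TPM in High 33 h. ENSCPOT00000025766.2 stood at 3.42 ± 1.27, 3.86 ± 1.83 and 8.65 ± 1.83 TPM in the same groups. Neither overlapped between vehicle and the high dose at 33 h.

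Low-level members of this group varied more. ENSCPOT00000044722.1 was at 1.13, 1.55, 6.55, 17.0 and 6.47 TPM in Low 9 h and at 20.5, 2.04, 9.94, 1.67 and 25.2 TPM in High 9 h, beside 0.535 to 1.85 TPM with vehicle. Animals 33, 34 and 41 were within the vehicle range. ENSCPOT00000043189.1 was listed at 0 in animals 58, 59, 35, 43 and 49 and reached 3.02 TPM in vehicle animal 32 and 5.53 TPM in vehicle animal 47. Its Low 33 h animals were at 1.61, 0, 2.34, 2.44 and 4.80 TPM and its High 33 h animals at 3.49, 13.6, 10.9, 8.38 and 2.43 TPM, so the groups overlapped with vehicle at both times.

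The widest spreads among Low 33 h animals belonged to low-level members too. ENSCPOT00000008544.3 was at 8.72, 0, 3.01, 4.84 and 6.98 TPM in animals 48 to 52, and ENSCPOT00000011622.3 (ENSCPOG00000011514, rat gene 362558) at 4.07, 0.697, 0.390, 1.948 and 5.74 TPM. ENSCPOT00000031748.1, at 69.4, 14.7, 28.2, 36.8 and 50.5 TPM, showed the spread at a higher level, beside 24.0, 24.8, 26.4, 46.2 and 63.9 TPM in Vehicle 33 h. In all 3, animals 48 and 52 were the highest of the group, and ENSCPOT00000043189.1, given above, was the fourth member with a wide spread.

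The high dose was compared with the low dose at 9 h as well. Both ratios had the same limit and helped to choose the members, so this is a description of the chosen transcripts and not an independent test. The log2 ratio was larger with the high dose in 115 of 133 members. edgeR's log2 fold change of High 9 h against Low 9 h had a median of 0.21 over 132 members, beside 0.00 over all transcripts, and was above 0 in 119. It called 0 members and 0% of the 19729 transcripts. An unadjusted p under 0.05 was held by 1 member and 638 transcripts, and DESeq2 called 0 members and 14 transcripts. Among the 17560 transcripts, 0.142% had every High animal above every Low animal, and 0 members did. The fold changes of single members ran from -1.64, in ENSCPOT00000013429.3 through animal 37, to 1.31, and the median difference was smaller than the SD between animals of either dose, 0.28 and 0.39. For ENSCPOT00000013600.3 it was 0.13 (SE 0.170, edgeR adjusted p = 0.993) and for ENSCPOT00000026740.2 it was 0.19 (SE 0.286, edgeR adjusted p = 0.993).

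The high-dose rise at 33 h was compared with that at 9 h by a contrast of both effects over 20 animals. The rule set the same limit at both times and so did not fix the sign, but it chose the members by these effects in the same animals, and the values are a description rather than an independent test. edgeR called 6 members, all with a smaller rise at 33 h, and none with a larger one, while 20.5% of all transcripts were called, 10.3% with a lower value at 33 h. The median difference was -0.14 over 132 members, and 96 of them were below 0, beside a median of -0.03 over all transcripts. An unadjusted p under 0.05 was held by 11 members (8.33%), beside 27.8% of all transcripts, and DESeq2 called 7 (5.30%), beside 22.6%. The count of 6 depended on single animals, as it was 15 without animal 39, 18 without animal 41 and 3 without vehicle animal 47, beside 21.2%, 22.2% and 18.5% of all transcripts. The other 126 members in the fit were not called, which does not show that their rise was the same at both times.

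ENSCPOT00000026740.2 had the largest difference of the 6, -2.86 (SE 0.392, edgeR adjusted p = 1.15e-04), and it was called in each of the 20 fits that left out an animal. ENSCPOT00000009930.3 was also called in all 20, with a difference of -0.67 (SE 0.145, edgeR adjusted p = 0.00436). This transcript is described because its difference was called. It stood at 12.4, 12.3, 11.3, 10.3 and 9.77 TPM in Vehicle 9 h, and at 36.6, 23.8, 25.8, 25.7 and 32.9 TPM in High 9 h. At 33 h its levels were 13.7, 12.3, 12.4, 11.4 and 13.4 TPM with vehicle and 17.5, 21.0, 21.9, 21.7 and 18.9 TPM with the high dose. The high-dose animals were above vehicle at both times, by less at 33 h, and animals 39 and 41 were near animal 40.

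The other 4 calls were less stable. ENSCPOT00000044032.1 had a difference of -2.83 (SE 0.982, edgeR adjusted p = 0.0606) and was not called without animal 42 or without animal 47. Its vehicle level was 0.122 ± 0.0904 TPM at 9 h and 1.01 ± 0.455 TPM at 33 h, and its high-dose level 2.38 ± 1.91 and 2.74 ± 0.679 TPM (SD, n = 5), so the treated level was alike at both times and the vehicle level was not. ENSCPOT00000004068.3, at -1.06 (SE 0.367, edgeR adjusted p = 0.0592), was not called without animal 38 or without animal 47. Its high-dose animals went from 34.2, 13.5, 21.8, 8.52 and 16.6 TPM at 9 h to 9.57, 9.83, 8.25, 9.39 and 5.94 TPM at 33 h, beside vehicle means of 5.50 and 5.38 TPM. ENSCPOT00000038292.1 at -1.15 (SE 0.435, edgeR adjusted p = 0.0862) was not called in 13 of the 20 fits that left out an animal, and ENSCPOT00000004260.3 (ENSCPOG00000004215, rat gene 679127) at -0.58 (SE 0.224, edgeR adjusted p = 0.0922) in 15.

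**Figure D4:**
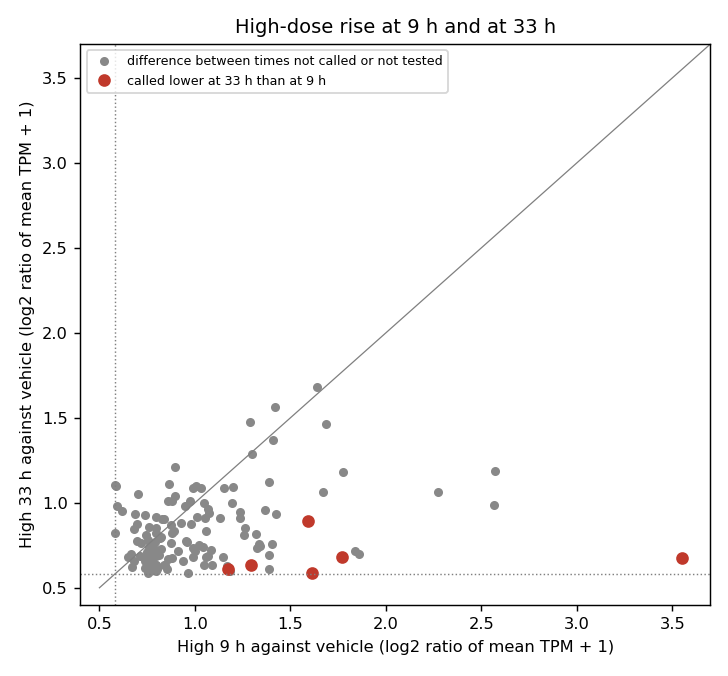
Log2 ratio of mean TPM plus 1 against vehicle in High 9 h (horizontal axis) and High 33 h (vertical axis) for the 133 transcripts, with equal values on the diagonal line and the limits of 0.58 dotted. The 6 red points are the members whose rise was called smaller at 33 h than at 9 h, and 98 members lie below the diagonal and 35 above it.

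The log2 ratio was larger in High 33 h than in High 9 h in 35 members, none of them called by edgeR. ENSCPOT00000021185.2 had the largest gain and was called by DESeq2. It stood at 9.00, 7.83, 9.06, 6.65 and 9.91 TPM in High 9 h and at 12.1, 23.3, 14.9, 19.0 and 13.6 TPM in High 33 h, beside vehicle means of 5.34 and 7.18 TPM. All High 33 h animals were above those of High 9 h, yet the difference of effects was 0.55 (SE 0.218, edgeR adjusted p = 0.102). ENSCPOT00000011623.3 (ENSCPOG00000011515, rat gene 171439) went from 62.2 ± 14.1 to 95.1 ± 6.42 TPM between the times, with vehicle at 37.8 ± 3.60 and 45.3 ± 5.80 TPM (SD, n = 5), and its difference of 0.38 (SE 0.161, edgeR adjusted p = 0.127) was not called either. ENSCPOT00000033212.1, at 2.01 ± 0.575 TPM in High 9 h and 3.50 ± 0.608 TPM in High 33 h, had a difference of 0.65 (SE 0.425, edgeR adjusted p = 0.348).

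For the low dose the rule itself required a smaller effect at 33 h, and the median difference of effects was -0.58. edgeR called 22 members lower, beside 2.39% of all transcripts called lower, although all 132 had a negative value. The count was between 3 and 53 when single animals were left out, with the highest value without animal 33, beside 10.2% of all transcripts in either direction, and the lowest without animal 36, beside 2.02%.

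The vehicle means are the denominators of the rule and so took part in the choice of members, and the effect of that choice on their difference was not tested. The vehicle level was higher at 33 h than at 9 h in 119 of 132 members, with a median log2 difference of 0.23, beside 0.00 over all transcripts tested, and 21 members were higher in every Vehicle 33 h animal than in every Vehicle 9 h animal, beside 2.58%. edgeR called 0 members and 0% of all transcripts, with 50 members (37.9%) at an unadjusted p under 0.05, beside 11.7% of all, and 22 called by DESeq2 (16.7%), beside 2.95%. These counts are not a test of the vehicle groups. ENSCPOT00000025766.2, for instance, stood at 1.87, 1.35, 1.55, 1.44 and 1.04 TPM in Vehicle 9 h and at 2.68, 2.93, 1.99, 4.71 and 4.80 TPM in Vehicle 33 h. With the mean of all 10 vehicle animals as the control at both times, the rule found 50 transcripts, 31 of them among the 133.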

How the data were processed

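Kidney RNA of 30 guinea pigs was sequenced by the authors as stranded poly-A libraries with 75-bp paired reads. Reads were assigned by the authors with Kallisto (0.42.4 per the submitters' processing notes) to the Ensembl guinea pig transcriptome, whose release is not given in the sources used here, and deposited an estimated count and a TPM value per transcript and animal. The estimated counts are not normalized, and TPM is scaled for effective length and to a fixed total, so a rise of abundant transcripts lowers the others.

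Groups came from the labels, and each animal keeps the number at the end of its title. Members were chosen from the deposited TPM. Estimated counts were rounded and tested in R 4.3.3 with edgeR 4.0.16 (filterByExpr over 6 groups, TMM, glmQLFit, glmQLFTest) on 19729 transcripts, each fit holding the groups of that comparison alone. DESeq2 1.42.0, RLE normalization, other filters, limits and controls, and leaving out each animal were alternatives. The authors used Sleuth. The code of the test was also run on simulated counts, and the outcome is not given here.

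The members, lists and rules were chosen with earlier results of these data known. Named transcripts were the 6 members with the highest vehicle level, the 6 with the largest smallest rise, the 4 with the largest gain and the 4 with the largest loss between High 9 h and High 33 h, the 4 with the widest Low 33 h spread, up to 4 called per direction, and those nearest the limits. Lists of stress, injury and cell type genes were not used, because transcripts were not paired with symbols and the rat gene numbers of the paired members were not converted. The in vitro samples were not analysed here.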

Additional observations from a re-analysis of the deposited data

Results flagged for a closer look

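An animal far from the others was looked for in 150 groups of 5 values, 138 of them levels of the 23 named transcripts and 12 the median ratios and summed levels of the members. Of these groups 8 were marked, all in named transcripts. A rate of 1 in 20 would mark 7.5, but it applies to independent groups. These transcripts were partly named for extreme ratios or wide spread and share the animals, so the count cannot be judged against that rate. ENSCPOT00000013429.3, described above, was not among the named transcripts checked. Vehicle animals held 5 of these values. ENSCPOT00000003931.3 was at 117.6 TPM in Vehicle 33 h animal 45, with the next value at 132.9 TPM, and ENSCPOT00000046819.1 at 28.6 TPM in the same animal, with the next at 35.2 TPM. ENSCPOT00000043189.1 was at 3.02 TPM in Vehicle 9 h animal 32 (next 0.844 TPM) and at 5.53 TPM in Vehicle 33 h animal 47 (next 1.08 TPM). ENSCPOT00000004068.3 was at 7.17 TPM in Vehicle 9 h animal 31 (next 5.40 TPM).

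Among treated animals, ENSCPOT00000004099.3 was at 75.5 TPM in High 9 h animal 40 (next 21.9 TPM), ENSCPOT00000044722.1 at 14.6 TPM in High 33 h animal 54 (next 7.27 TPM) and ENSCPOT00000011622.3 at 1.94 TPM in High 33 h animal 57 (next 4.08 TPM).

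Differences of an effect between 9 and 33 h were called by edgeR for 6 members with the high dose, beside 20.5% of all transcripts. With the low dose, where the rule imposed the direction, 22 members were called, beside 2.39% of all transcripts called lower.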

How the results depend on the processing

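No paired analysis was possible because the animal numbers are not shared between groups. The number of members, 133, was 155 with group medians in place of means, of which 81 were among the 133, and it was 86 with TMM-scaled CPM in place of TPM (71 shared), 50 with all 10 vehicle animals as control, 74 with a Low 33 h limit of 0.2 and, with a control chosen after seeing the data, 207 with Vehicle 9 h animals 58 to 60 only. It was between 81 and 187 when an animal was left out, 81 being without Low 33 h animal 49. At an adjusted p of 0.05, edgeR called 2 members for the change of the high-dose effect and 1 for the low dose. The shares of all transcripts at that threshold are not given here. DESeq2 called 2 members in Low 33 h, beside 7.46% of all transcripts, and 22 between the vehicle groups, beside 2.95%. It called 37 (28.0%) for the change of the low-dose effect, beside 8.57%. Leaving out an animal gave 0 to 23 called members in Low 33 h (23 without animal 49, beside 10.5% of all transcripts). Between the vehicle groups it gave 0 to 1 (1 without animal 32, beside 0.177%). It gave 3 (beside 18.5%) to 18 (beside 22.2%) for the high-dose change and 3 (beside 2.02%) to 53 (beside 10.2%) for the low-dose change. The last moved by over 1.5 times without any of animals 31, 32, 33, 34, 35, 36, 37, 46, 47, 49, 50, 51, 58, 59 and 60. Called members stayed within 1.5 times in Low 9 h (101 to 126, beside 14.5% and 25.3% of all transcripts in those fits). The same held in High 9 h (118 to 129, beside 22.7% and 36.2%) and High 33 h (123 to 129, beside 46% and 48.2%). It held too for High 33 h against Low 33 h (92 to 116, beside 21.2% and 33.2%). High 9 h against Low 9 h stayed at 0, beside at most 0.0101%. Among the log2 fold changes of named members under the alternatives, 17 lost and 16 gained a call, and 31 changed sign, each on leaving out an animal and in members not called with all animals. The change of the high-dose effect then ranged from -0.12 to 0.0245 in ENSCPOT00000009900.3, -0.0906 to 0.18 in ENSCPOT00000022220.2, -0.14 to 0.0588 in ENSCPOT00000039744.1, -0.49 to 0.54 in ENSCPOT00000004099.3, -0.0098 to 0.41 in ENSCPOT00000006885.3 and -2.0005 to 0.71 in ENSCPOT00000043189.1. High 9 h against Low 9 h ranged from -0.54 to 0.56 in ENSCPOT00000004099.3, -0.0592 to 0.39 in ENSCPOT00000025766.2, -0.0971 to 0.0413 in ENSCPOT00000021185.2, -0.26 to 0.0434 in ENSCPOT00000033212.1, -0.0337 to 0.0981 in ENSCPOT00000046819.1, -0.0745 to 0.13 in ENSCPOT00000011623.3, -0.0259 to 0.74 in ENSCPOT00000031748.1 and -0.0274 to 0.49 in ENSCPOT00000004068.3. The median ratio of Vehicle 9 h animal 60 went from -0.03 to 0.04 with members chosen without it. The cause of these changes was not tested.

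A member listed at 0 in an animal gives no fold for that animal.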
